A study of Mus musculus with 14 samples.

Results

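The genes described here are 9 genes of the MHC class I pathway, measured in thymic lymphomas of the mouse. They are the class I heavy chains H2-K1, H2-D1 and H2-T3, their light chain B2m, the peptide loading genes Tap1, Tap2 and Tapbp, and the immunoproteasome subunits Psmb8 and Psmb9. They were chosen by name as 9 of the 15803 genes on the arrays, and 65 of the 194293 probe sets were annotated to 1 of them alone. Vav-SB and CD4-SB are Sleeping Beauty mouse models of acute leukaemia of T-cell precursors (T-ALL), and the study holds 14 tumours, 7 from each. All carry the strain label Vav-SB or CD4-SB and the disease label thymic lymphoma. The labels add no age, sex, inbred background, transposon line or treatment. Sleeping Beauty is a cut-and-paste transposon that mutates genes where it lands. Vav and Cd4 are genes whose promoters are used to switch on transgenes or Cre, Vav in blood cells from the stem cell stage on and Cd4 in T cells from the double-positive thymocyte stage on. The labels do not state what the names stand for here. The series title gives the question as the influence of the cell of origin on T-ALL. Both groups are whole tumours, so each value mixes lymphoma cells with host cells.

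MHC class I molecules show peptides from inside a cell to CD8 T cells. The proteasome cuts proteins into peptides, Tap1 and Tap2 together form the pump that carries peptides into the endoplasmic reticulum, and Tapbp (tapasin) holds the pump beside an empty heavy chain that is paired with B2m until a peptide binds. H2-K1 and H2-D1 encode the classical heavy chains, which nearly all nucleated cells carry, while double-positive thymocytes are known for low surface levels of them and mature T cells for high ones. H2-T3 encodes a nonclassical heavy chain, the thymus leukaemia antigen, which is found on intestinal epithelium, on immature thymocytes of some mouse strains and on T-cell leukaemias, and which binds the CD8 alpha homodimer.

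The promoters of the heavy chains and the light chain are shown because these 4 genes encode chains of the same kind of complex and were called lower, higher or not at all in Vav-SB tumours. Class I promoters are known for an element bound by NF-kappaB, an element bound by interferon regulatory factors, and a module with an X2 element and a CCAAT box that Rfx5, Creb1, Nfya and Nlrc5 use. The sequences are RefSeq's, build GRCm38.p6, each running from 250 bases before to 50 bases after a transcription start, 5′ to 3′ on the gene's strand. H2-K1 lies at chr17:34000284-34000583 on the minus strand, H2-D1 at chr17:35262844-35263143 on the plus strand, H2-T3 at chr17:36190102-36190401 on the minus strand and B2m at chr2:122147437-122147736 on the plus strand. Capitals mark matches on either strand to GGGATTCCC (an NF-kappaB element) or TTTCNNTT (a loose interferon response element). They also mark TGACGC, the X2 element. The last motif, marked likewise, is the CCAAT box, searched as ATTGG. No match overlapped another.
H2-K1: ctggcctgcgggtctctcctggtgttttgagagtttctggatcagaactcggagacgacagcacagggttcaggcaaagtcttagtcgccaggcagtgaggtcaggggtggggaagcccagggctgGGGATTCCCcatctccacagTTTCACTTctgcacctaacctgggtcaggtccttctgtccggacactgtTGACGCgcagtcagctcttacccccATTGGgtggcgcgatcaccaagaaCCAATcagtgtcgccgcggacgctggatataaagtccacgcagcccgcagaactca
H2-D1: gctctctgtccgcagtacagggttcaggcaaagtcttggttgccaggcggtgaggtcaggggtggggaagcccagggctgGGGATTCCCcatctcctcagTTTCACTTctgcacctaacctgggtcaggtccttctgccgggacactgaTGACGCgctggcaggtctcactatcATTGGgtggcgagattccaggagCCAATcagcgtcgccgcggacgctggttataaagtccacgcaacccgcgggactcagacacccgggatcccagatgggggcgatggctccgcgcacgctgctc
H2-T3: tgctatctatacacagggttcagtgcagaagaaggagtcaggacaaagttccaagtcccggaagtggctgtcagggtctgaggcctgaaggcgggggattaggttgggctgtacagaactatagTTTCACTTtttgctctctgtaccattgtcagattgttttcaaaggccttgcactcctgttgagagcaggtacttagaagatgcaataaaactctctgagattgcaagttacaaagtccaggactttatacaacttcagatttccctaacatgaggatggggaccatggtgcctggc
B2m: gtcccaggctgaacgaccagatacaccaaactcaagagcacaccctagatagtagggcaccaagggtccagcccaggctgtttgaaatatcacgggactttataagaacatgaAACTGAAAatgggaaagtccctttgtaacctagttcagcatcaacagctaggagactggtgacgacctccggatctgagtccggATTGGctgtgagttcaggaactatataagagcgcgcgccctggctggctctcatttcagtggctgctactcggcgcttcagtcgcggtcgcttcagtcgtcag
The windows of H2-K1 and H2-D1 both held all 4 motifs in the same order. GGGATTCCC stood at position -124 from the start in H2-K1 and at -170 in H2-D1, TTTCACTT at -104 and -150, and TGACGC at -55 and -101. Aligned bases lie at different distances from the 2 annotated starts, so these positions do not show a different layout of the elements. RefSeq lists more than 1 start for H2-K1, and the window printed belongs to the one further downstream. Over 253 aligned bases the 2 windows were 87.7% identical. The H2-T3 window held only TTTCACTT, at -126. The B2m window held an interferon-type match on the opposite strand at -137, printed as AACTGAAA, and a CCAAT box at -53. Of 32851 RefSeq promoter windows of the same length, 0.353% held GGGATTCCC, 23.9% TTTCNNTT, 7.4% TGACGC and 37.4% ATTGG. A match is a match of letters only. Of the 9 genes, 8 had a promoter entry.

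Of the 9 genes, 3 passed the gene test at an adjusted p below 0.05 (limma, Benjamini-Hochberg over all 15803 genes), beside 14.5% of all genes. H2-T3 rose in Vav-SB tumours relative to CD4-SB tumours, beside 7.28% of all genes that rose. H2-K1 and H2-D1 fell, beside 7.18% of all genes that fell. In the same 3 genes the 7 tumours of one model did not overlap with those of the other, beside 4.04% of all genes. B2m, Tap1, Tap2, Tapbp, Psmb8 and Psmb9 did not pass. Ordered by the size of the difference, H2-T3 was gene 11 of 15803, H2-D1 gene 106 and H2-K1 gene 118. Levels are on the array's log2 scale, where 1 unit is a 2-fold change, and are means over a gene's probe sets. Differences are Vav-SB minus CD4-SB, and levels of different genes are not comparable on an array.

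**Figure D1:**
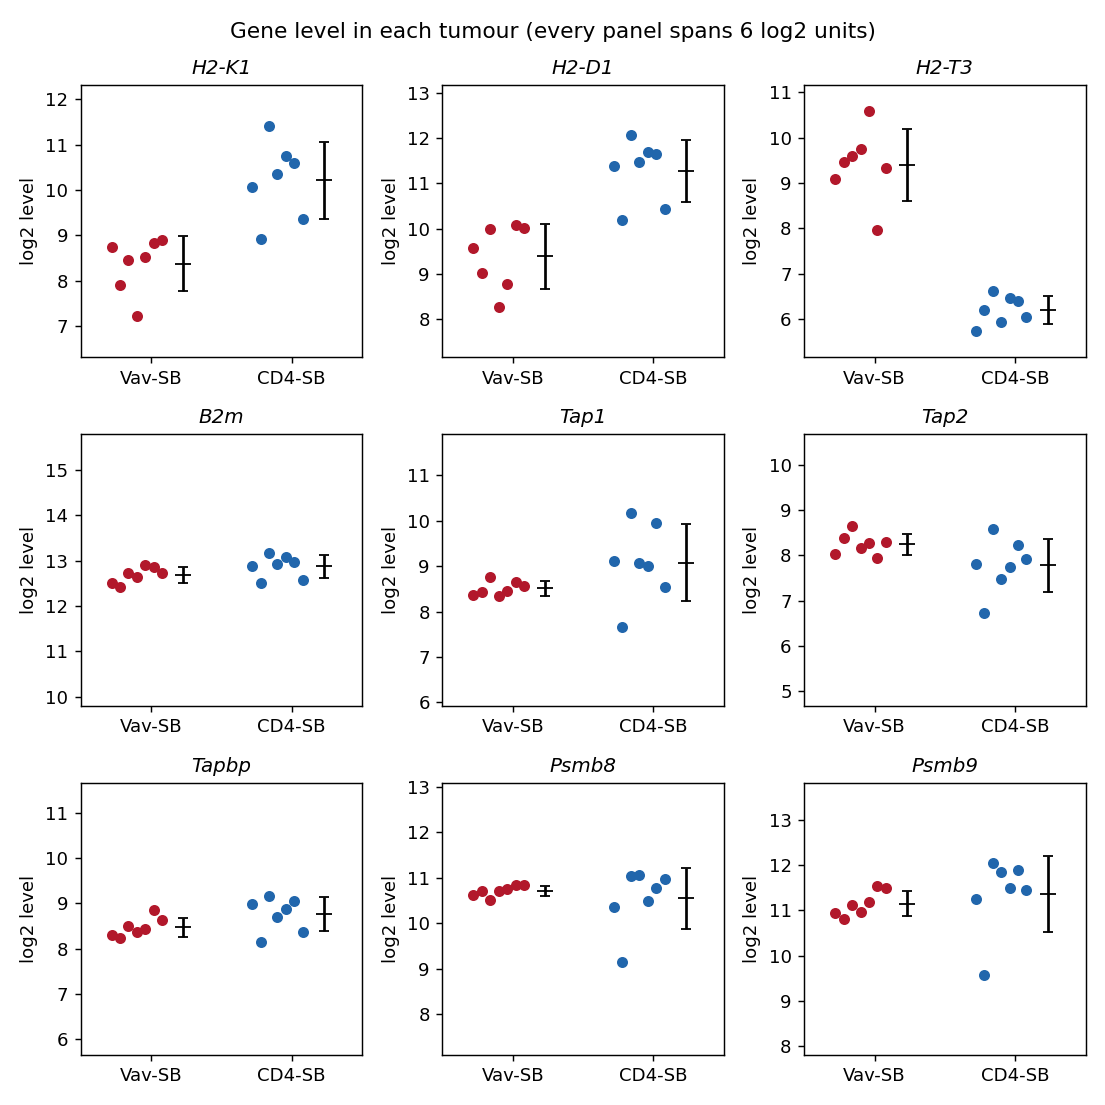
Log2 level of each of the 9 genes (y axis, every panel spanning 6 log2 units) in the 7 Vav-SB tumours (red) and the 7 CD4-SB tumours (blue). Points are tumours and the bar beside them is the mean with the SD. The models separate in H2-K1, H2-D1 and H2-T3, and the CD4-SB tumours spread more widely than the Vav-SB tumours in Tap1 and Psmb8.

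The classical heavy chains were both lower in Vav-SB tumours. H2-K1 had a lowest, median and highest level of 7.22, 8.53 and 8.90 in Vav-SB tumours, against 8.93, 10.35 and 11.42 in CD4-SB tumours. The highest Vav-SB tumour lay just below the lowest CD4-SB tumour, CD4-SB replicate 2. The mean of the Vav-SB tumours was 8.37 ± 0.61 and that of the CD4-SB tumours 10.21 ± 0.85 (SD, n = 7 each), a difference of -1.84 (95% interval -2.61 to -1.07) or 3.58-fold, with an adjusted p of 0.00391 in limma.

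H2-D1 followed the same pattern. Its lowest, median and highest levels were 8.27, 9.57 and 10.07 in Vav-SB tumours, against 10.20, 11.47 and 12.07 in CD4-SB tumours. CD4-SB replicates 2 and 7, at 10.20 and 10.44, were the CD4-SB tumours nearest to the Vav-SB tumours, and the other 5 stood at 11.38 or above. Vav-SB tumours averaged 9.39 ± 0.71 and CD4-SB tumours 11.27 ± 0.69 (SD, n = 7 each), a difference of -1.88 (95% interval -2.61 to -1.15) or 3.68-fold (limma, adjusted p = 0.00248).

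All 6 probe sets of these 2 genes fell in the test of single probe sets, which was adjusted over all 194293 and called 8.45% of them, 3.88% as lower in Vav-SB. The 4 probe sets of H2-K1 differed by -2.49 to -1.32. Probe set 4719314 had the largest difference, at 3.46, 5.27 and 5.78 in Vav-SB tumours and 4.89, 7.14 and 9.41 in CD4-SB tumours (lowest, median and highest, limma adjusted p = 0.0153). Probe set 4904496 had the smallest, at 7.57, 9.48 and 9.61 in Vav-SB and 9.55, 10.31 and 11.18 in CD4-SB (limma adjusted p = 0.0168). The 2 probe sets of H2-D1, 4394052 and 5587306, differed by -1.93 and -1.83. Class I genes are near-identical over long stretches, so a probe set annotated to H2-K1 may also bind RNA of H2-D1 or of other class I genes, and the pair cannot be taken as independent measurements. None of the 4 probe sets of H2-K1 departed from the rest of its gene, and H2-D1 has too few probe sets for that test.

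The mean level of markers of host cells was, like the 2 classical heavy chains, lower in Vav-SB tumours. The mean level of 47 measured markers of myeloid, dendritic, B-lineage, stromal, endothelial and thymic epithelial cells, of 51 listed, ran from 7.17 to 7.81 in Vav-SB tumours and from 7.49 to 8.43 in CD4-SB tumours. Vav-SB tumours averaged 7.35 ± 0.23 and CD4-SB tumours 7.97 ± 0.34 (SD, n = 7 each), a difference of -0.61 (exact permutation test over 3432 splits, two-sided p = 0.00291). Of the 47 markers 1 rose, 11 fell and 35 did not pass, beside 7.28% of all genes that rose and 7.18% that fell. By cell type the median difference ran from -0.93 (thymic epithelium) to -0.04 (endothelial, where 1 rose and 0 fell). The array has no true zero, so no marker could be called absent. With this marker level as a covariate the difference of H2-K1 was -0.88 ± 0.45 (SE, limma adjusted p = 0.296) and that of H2-D1 -0.82 ± 0.38 (SE, limma adjusted p = 0.251), so neither passed. In that fit 3.33% of all genes passed, 2.19% higher and 1.14% lower in Vav-SB. In a whole tumour, fewer cells of a type and less RNA per cell cannot be told apart, and the part of host cells in these differences was not tested beyond that fit.

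The marker level and the classical heavy chains were also compared within each model, and no relation passed after adjustment. Within Vav-SB tumours the Pearson r was 0.603 for H2-D1 (exact permutation p = 0.149) and 0.338 for H2-K1 (exact permutation p = 0.42), and without the 2 tumours farthest from the median marker level it was 0.437 and 0.523. Within CD4-SB tumours H2-D1 had a Pearson r of 0.817 (exact permutation p = 0.0288, adjusted p = 0.155 over 18 relations, n = 7) and a Spearman rho of 0.643 (exact permutation p = 0.139, adjusted p = 0.312). H2-K1 had a Pearson r of 0.741 (exact permutation p = 0.0556, adjusted p = 0.2) and a rho of 0.643 (exact permutation p = 0.139). Without the 2 farthest tumours r was 0.953 for H2-D1 and 0.976 for H2-K1. Each of these values rests on 5 tumours. Over the 18 relations, 9 genes in each of 2 models, the lowest adjusted p was 0.146, for Tapbp in CD4-SB tumours (r = 0.893, exact permutation p = 0.00813).

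**Figure D2:**
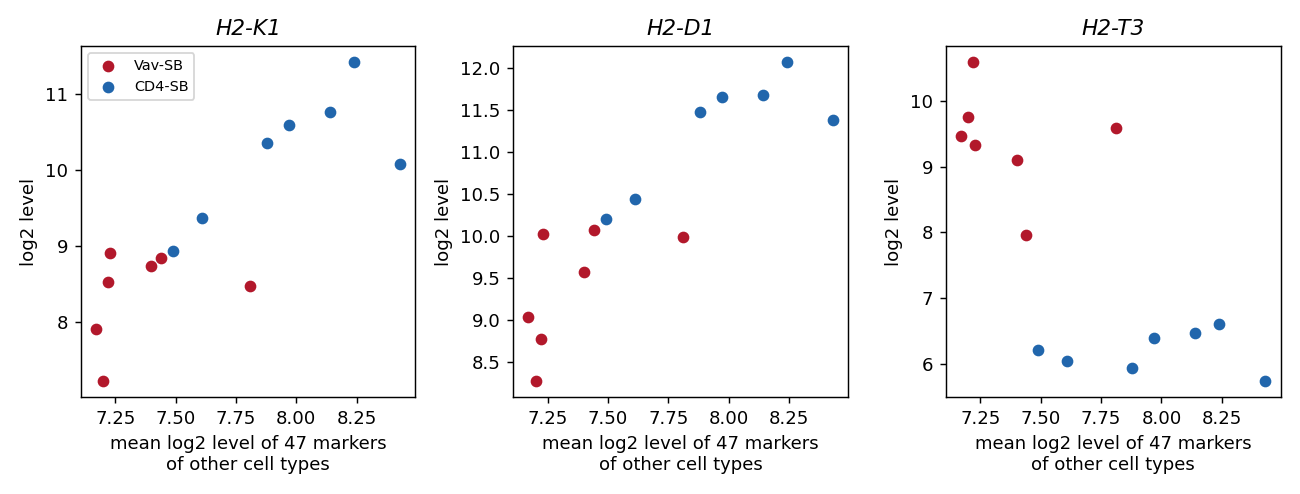
Log2 level of H2-K1, H2-D1 and H2-T3 (y axes) against the mean log2 level of 47 markers of other cell types (x axes), 1 point per tumour, Vav-SB in red and CD4-SB in blue. CD4-SB replicate 2, at a marker level of 7.49, lies nearest to the Vav-SB tumours in H2-K1, while H2-T3 separates the models at every marker level they share.

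H2-T3 moved the other way and by more. Its lowest, median and highest levels were 7.96, 9.46 and 10.59 in Vav-SB tumours, against 5.74, 6.21 and 6.61 in CD4-SB tumours. Vav-SB replicate 6 was the lowest Vav-SB tumour and still stood above every CD4-SB tumour. Vav-SB tumours averaged 9.40 ± 0.79 and CD4-SB tumours 6.20 ± 0.31 (SD, n = 7 each), a difference of 3.19 (95% interval 2.57 to 3.82) or 9.16-fold (limma, adjusted p = 9.9e-06). The size depends on the probe sets that enter it. It was 2.43 with the median over the 3 probe sets (limma, adjusted p = 0.00051) and 1.90 with only probe sets brighter than the median of all (limma, adjusted p = 0.0004). With the marker level as a covariate the difference was 3.04 ± 0.46 (SE, limma adjusted p = 0.00322).

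Its 3 probe sets did not move alike. Probe set 5598064 was at 7.34, 9.31 and 11.02 in Vav-SB tumours and at 2.80, 3.47 and 4.94 in CD4-SB tumours (lowest, median and highest), a 55-fold difference (limma, adjusted p = 1.51e-06). Probe set 5115377 was at 8.42, 10.45 and 11.48 in Vav-SB and at 5.97, 6.97 and 7.62 in CD4-SB, a 9.36-fold difference (limma, adjusted p = 0.000107). Probe set 4366587 was at 8.14, 8.55 and 9.26 in Vav-SB and at 7.32, 8.11 and 8.86 in CD4-SB, where the models overlapped and the difference of 0.58 did not pass (limma, adjusted p = 0.143). Set against the other probe sets of H2-T3 with limma's diffSplice, 5598064 departed by 3.88 (adjusted p = 2.93e-07) and 4366587 by -3.93 (adjusted p = 2.18e-07), a test that called 1.33% of 177027 probe sets. The gene level of H2-T3 therefore averages 1 probe set with little difference and 2 with large ones.

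A further 7 probe sets were annotated to H2-T3 together with a second name and did not enter its gene level. The further names are H2-Tw3, which RefSeq lists as a synonym of H2-T3, H2-T18, and the classical heavy chain H2-D1. Probe set 5233058 had only the names H2-T3 and H2-Tw3 and so may belong to H2-T3 alone, and it is not among the 65. All 7 rose, beside 4.57% of all probe sets, and in none did the models overlap. Over all probe sets 2.69% had no overlap. The differences of the 7 were 2.63 to 6.56 (6.18-fold to 94.1-fold, limma adjusted p between 1.41e-06 and 0.000908). The largest was probe set 5381020, at 6.68, 10.48 and 11.69 in Vav-SB tumours and 3.25, 3.73 and 3.94 in CD4-SB tumours. Of the 7, 5016410 and 5487324 were annotated to H2-T3 and H2-D1 only, and both ran higher in Vav-SB, opposite to the probe sets of H2-D1 alone.

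**Figure D3:**
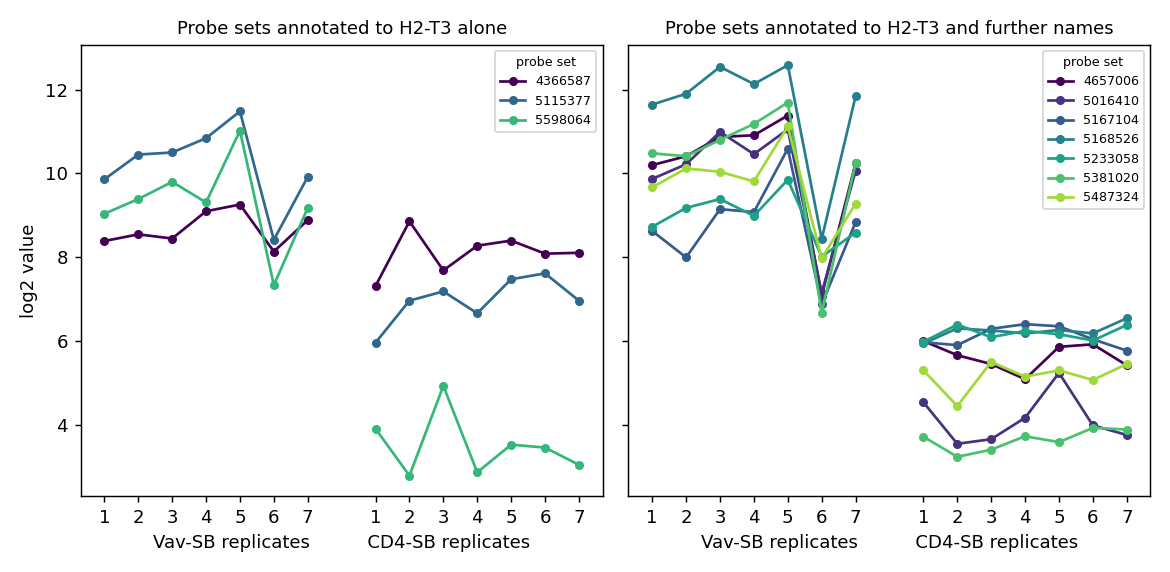
Log2 value of each probe set (y axis) in each tumour (x axis, Vav-SB replicates and then CD4-SB replicates), for the 3 probe sets annotated to H2-T3 alone (left) and the 7 annotated to H2-T3 with further names (right). Lines only join the values of 1 probe set, since replicates have no order. Vav-SB replicate 6 has the lowest Vav-SB value in all 10 probe sets, and 4366587 is the probe set in which the models overlap.

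Probe sets shared by H2-Q1 and H2-Q6, further class I heavy chains, and the names H2-gs10 and 0610037M15Rik gave mixed values. Of 10 such probe sets 1 rose, 2 fell and 7 did not pass, beside 4.57% of all probe sets that rose and 3.88% that fell. Probe set 4570269 was higher in Vav-SB, at 5.99, 9.11 and 10.56 in Vav-SB tumours and 4.73, 5.36 and 5.79 in CD4-SB tumours (limma, adjusted p = 0.00578). Vav-SB replicates 1, 2 and 3 lay between 5.99 and 7.21, and replicates 4 to 7 between 9.11 and 10.56. Probe set 5515950 was lower in Vav-SB, at a median of 9.30 and at most 9.94 in Vav-SB tumours and at 9.70, 11.38 and 12.54 in CD4-SB tumours (lowest, median and highest) (limma, adjusted p = 0.0106). Probe set 4802983 differed by -1.11 with no overlap between the models (limma, adjusted p = 0.0174). The files do not tell which class I gene each of these probe sets binds. Since no inbred background is labelled, whether all tumours carry the same class I alleles is not known and was not tested.

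Among other class I and class I-like genes, 10 of the 23 listed were measured alone, and 4 rose and none fell at the adjusted threshold. Over all genes 7.28% rose and 7.18% fell. The median difference of the 10 was 0.01, and that of all genes 0.0. H2-T10, whose nonclassical product gamma-delta T cells can recognise, was at 11.47, 12.77 and 13.25 in Vav-SB tumours and 8.81, 10.49 and 12.02 in CD4-SB tumours, a 4.83-fold difference (limma, adjusted p = 0.0032). Probe sets of H2-T10 may also bind RNA of other class I genes, and which ones is not known here. Probe set 5093104, shared by H2-T22, H2-T9 and H2-T17, differed by 0.93 and did not pass (limma, adjusted p = 0.278). It ran from 8.23 to 10.65 in Vav-SB tumours and from 6.95 to 10.41 in CD4-SB tumours. Cd1d1 and Cd1d2, which present lipids to NKT cells, rose by 0.72 and 1.16 on the log2 scale. Mr1, which presents vitamin B metabolites to MAIT cells, rose by 1.12. With the marker level as a covariate H2-T10, Cd1d2 and Mr1 passed and Cd1d1 did not (limma, adjusted p = 0.0915). H2-M2 differed by -1.77 and did not pass (limma, adjusted p = 0.0755), with Vav-SB tumours running from 6.24 to 7.28 and CD4-SB tumours from 6.40 to 10.80. H2-M2 was singled out after its values were seen, and H2-T23 and H2-M3 were not analysed here.

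B2m, the light chain of H2-K1, H2-D1 and many class I-like chains, did not pass. Its lowest, median and highest levels were 12.43, 12.73 and 12.90 in Vav-SB tumours, against 12.50, 12.93 and 13.17 in CD4-SB tumours. The models overlapped over most of their range. Vav-SB tumours averaged 12.69 ± 0.18 and CD4-SB tumours 12.87 ± 0.25 (SD, n = 7 each), a difference of -0.18 (95% interval -0.43 to 0.07, limma adjusted p = 0.345). Its 5 probe sets differed by -0.27 (5310719) to -0.11 (4513606), and 0 of 5 passed in limma, also before adjustment. Probe set 4530527 of B2m held the highest value of the whole table, 14.03 in a CD4-SB tumour, and whether the array saturates at such levels was not tested.

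The peptide pump and tapasin did not pass either. Tap1 was at 8.35, 8.45 and 8.77 in Vav-SB tumours and 7.66, 9.07 and 10.18 in CD4-SB tumours (lowest, median and highest). Vav-SB tumours held a narrow range inside the wide CD4-SB range, with CD4-SB replicate 2 below all Vav-SB tumours and replicates 3 and 6 well above them. The means were 8.51 ± 0.16 in Vav-SB and 9.07 ± 0.85 in CD4-SB tumours (SD, n = 7 each). The difference was -0.56 (95% interval -1.20 to 0.07, limma adjusted p = 0.241), and without CD4-SB replicate 2 it was -0.80 (limma adjusted p = 0.03). All 14 probe sets of Tap1 had a negative difference, from -0.79 (4912289) to -0.24 (4926810). In limma 0 of 14 passed after adjustment and 5 of 14 had an unadjusted p below 0.05.

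Tap2, the other subunit of the pump, leaned the opposite way. It was at 7.94, 8.26 and 8.64 in Vav-SB tumours and 6.72, 7.80 and 8.58 in CD4-SB tumours. Tap2 averaged 8.24 ± 0.23 in Vav-SB tumours, against 7.78 ± 0.59 in CD4-SB tumours (SD, n = 7 each), with a difference of 0.46 (95% interval -0.01 to 0.94, limma adjusted p = 0.191). Of its 13 probe sets 2 rose, beside 4.57% of all probe sets, and 11 did not pass. In limma 7 of 13 had an unadjusted p below 0.05, all higher in Vav-SB. Probe set 5613247 was at 8.24, 8.95 and 9.40 in Vav-SB and 6.78, 7.81 and 8.96 in CD4-SB (limma adjusted p = 0.0397), and 5462555 at 7.63, 8.15 and 8.36 in Vav-SB and 7.35, 7.41 and 7.77 in CD4-SB (limma adjusted p = 0.0171). The lowest difference was -0.25, in 5517343. With the marker level as a covariate the subunits differed by 0.27 ± 0.36 (Tap1, limma adjusted p = 0.705) and 0.98 ± 0.30 (Tap2, limma adjusted p = 0.0875), given with the SE, and neither passed.

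Tapbp was at 8.23, 8.43 and 8.84 in Vav-SB tumours and 8.15, 8.88 and 9.17 in CD4-SB tumours, and the models overlapped. Tapbp averaged 8.47 ± 0.21 in Vav-SB tumours, against 8.76 ± 0.38 in CD4-SB tumours (SD, n = 7 each), with a difference of -0.29 (95% interval -0.62 to 0.05, limma adjusted p = 0.254). Of its 11 probe sets 1 rose, beside 4.57% of all probe sets, and 10 did not pass, of which 3 had an unadjusted p below 0.05 and were lower in Vav-SB. The differences had a range of -0.83 (4577634) to 1.01 (5017790). Probe set 5017790 was at 8.49, 8.80 and 10.27 in Vav-SB and 7.64, 8.05 and 8.64 in CD4-SB (limma adjusted p = 0.0235). It departed from the other probe sets of Tapbp by 1.43 (diffSplice, adjusted p = 0.000263). Its place along the gene is not known here.

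**Figure D4:**
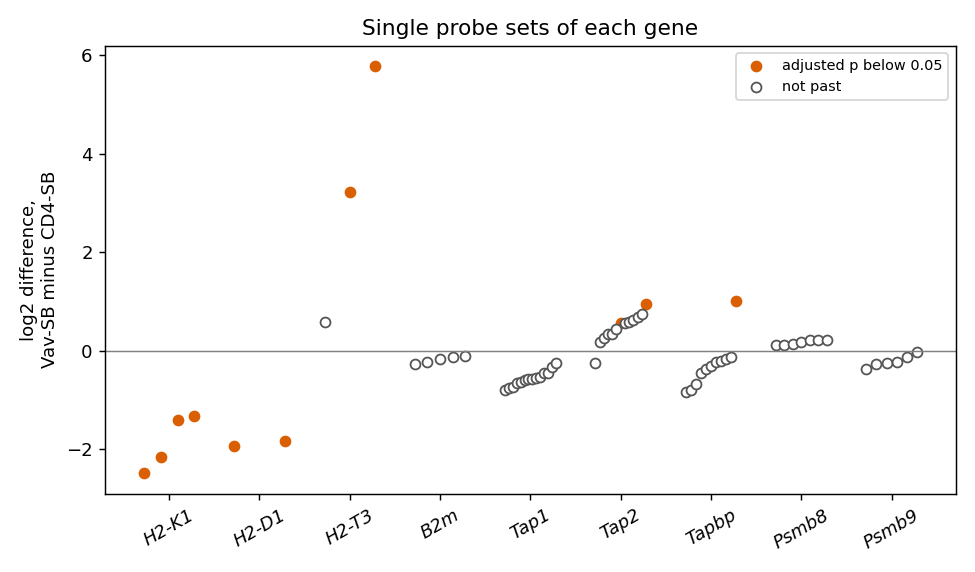
Log2 difference, Vav-SB minus CD4-SB (y axis), of the 65 probe sets by gene (x axis), ordered by difference within a gene. Filled points passed an adjusted p below 0.05. All 6 filled points below 0 belong to H2-K1 and H2-D1, and the 5 above 0 to H2-T3, Tap2 and Tapbp.

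Over the 65 probe sets 5 rose, beside 4.57% of all probe sets, 6 fell, beside 3.88%, and 54 did not pass. In 4 of the 65 the models did not overlap, beside 2.69% of all probe sets. In the wider peptide loading list all 11 genes were measured, and 2 rose and 3 fell, beside 7.28% and 7.18% of all genes. Tapbpl, a relative of tapasin that edits the bound peptides, was at 8.40, 9.11 and 9.18 in Vav-SB tumours and 7.58, 8.13 and 9.01 in CD4-SB tumours, a 1.71-fold difference (limma, adjusted p = 0.0172). Uggt1, which senses poorly folded glycoproteins, rose by 0.38 (limma, adjusted p = 0.0301). Pdia3, the disulphide enzyme that is bound to tapasin, fell by 0.42 (limma, adjusted p = 0.0144) with no overlap between the models, and the chaperone Calr fell by 0.34 (limma, adjusted p = 0.0444). Erap1, which trims peptides in the endoplasmic reticulum, differed by -0.15 (limma, adjusted p = 0.574). The median of the list was -0.15, and with the marker level as a covariate none of the 11 passed.

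The immunoproteasome subunits did not pass. Psmb8, which takes the place of Psmb5 in the immunoproteasome, was at 10.52, 10.70 and 10.84 in Vav-SB tumours and 9.14, 10.78 and 11.06 in CD4-SB tumours. The 7 Vav-SB tumours lay within a narrow band, and CD4-SB replicate 2 stood far below the other 6 CD4-SB tumours. The means were 10.71 ± 0.12 in Vav-SB and 10.55 ± 0.68 in CD4-SB (SD, n = 7 each). The difference was 0.17 (95% interval -0.35 to 0.68, limma adjusted p = 0.718), and without CD4-SB replicate 2 it was -0.07 (limma, adjusted p = 0.759). Its 7 probe sets differed by 0.11 (4330247) to 0.22 (4747753), and 0 of 7 passed in limma, also before adjustment.

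Psmb9, which takes the place of Psmb6, was at 10.80, 11.11 and 11.53 in Vav-SB tumours and 9.58, 11.49 and 12.05 in CD4-SB tumours. CD4-SB replicate 2 was again the lowest, and the other 6 CD4-SB tumours stood at 11.24 or above. The means were 11.15 ± 0.27 in Vav-SB and 11.36 ± 0.84 in CD4-SB (SD, n = 7 each). The difference was -0.21 (95% interval -0.86 to 0.44, limma adjusted p = 0.715), and without CD4-SB replicate 2 it was -0.51 (limma, adjusted p = 0.0422). Its 6 probe sets differed by -0.38 (4547919) to -0.02 (5172102), and 0 of 6 passed in limma, also before adjustment.

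The partners of these subunits gave no call. Of 7 genes for further immunoproteasome parts and activators, 0 passed in limma after adjustment and 2 had an unadjusted p below 0.05, with a median difference of -0.08. Psmb10, which takes the place of Psmb7, differed by -0.25 (limma, adjusted p = 0.42). Psme1 and Psme2, the subunits of the activator that opens the proteasome, differed by -0.08 and -0.15. Of 11 measured genes of the constitutive core, 14 listed, 10 did not pass, with a median of 0.0. The 1 that rose, beside 7.28% of all genes, was Psma3, by 0.53 (limma, adjusted p = 0.0256). Psma3 was dim, since its means of 5.09 (Vav-SB) and 4.57 (CD4-SB) both lay below the median level of all genes, 7.22. Psma3 did not pass with the marker level as a covariate (limma, adjusted p = 0.352). In that fit the 1 core gene that passed was Psmb4, at -0.48 (limma, adjusted p = 0.0485). Without the covariate Psmb4 differed by -0.24 and did not pass (limma, adjusted p = 0.11). Psmb5, Psmb6 and Psmb7, the catalytic subunits that the immunoproteasome replaces, differed by -0.17, 0.06 and 0.16.

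**Figure D5:**
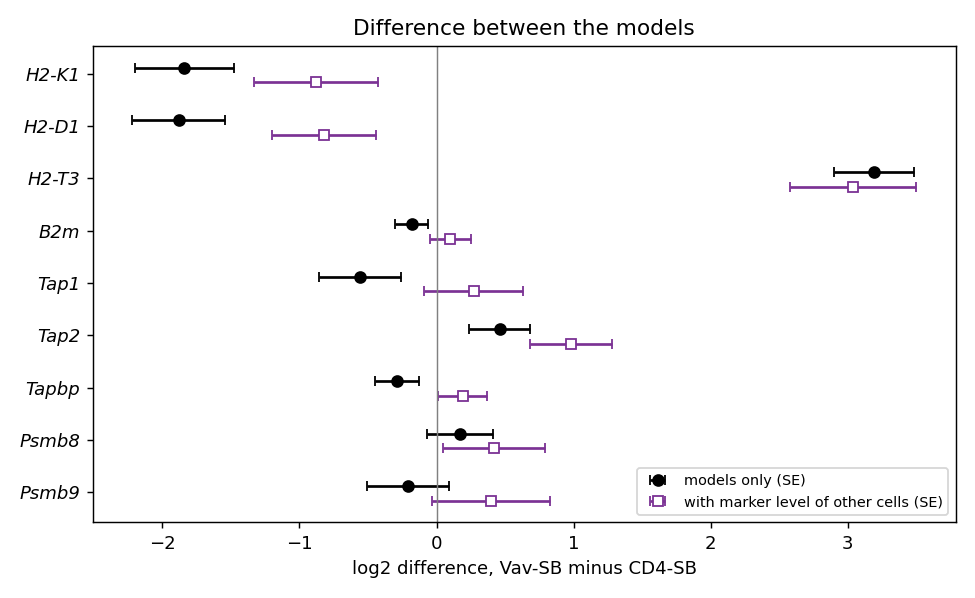
Log2 difference of each gene, Vav-SB minus CD4-SB (x axis), from the models alone (filled circles) and with the marker level of other cell types as a covariate (open squares), with SE bars. H2-T3 stays near 3 in both fits, and H2-K1 and H2-D1 lie nearer to 0 with the covariate.

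Of 23 measured regulators of class I transcription, 27 listed, 3 rose and 2 fell, beside 7.28% and 7.18% of all genes. The median was -0.11. Ezh2, the enzyme of the Polycomb complex that places a repressive histone mark and is known to silence class I genes in some tumours, was at 10.69, 11.39 and 11.46 in Vav-SB tumours and 9.52, 9.88 and 11.02 in CD4-SB tumours, a 2.31-fold difference (limma, adjusted p = 0.00311). Creb1, a factor of the X2 element, rose by 0.52 (limma, adjusted p = 0.0171). The NF-kappaB subunits Nfkb1 and Rela fell by 0.53 and 0.41 (limma, adjusted p = 0.0388 and 0.0474). With the marker level as a covariate none of these 4 passed, at 0.49 for Ezh2, 0.46 for Creb1, -0.17 for Nfkb1 and -0.20 for Rela (limma, adjusted p = 0.296, 0.227, 0.69 and 0.585). Irf1, an interferon regulatory factor, differed by 0.09 (limma, adjusted p = 0.82), and Rfx5 by 0.29 (limma, adjusted p = 0.128). With the marker level as a covariate 2 of the 23 passed, both higher in Vav-SB. They were Ifnar1, at 0.72 (limma, adjusted p = 0.0031), and Rfx5, at 0.60 (limma, adjusted p = 0.0495). Without the covariate Ifnar1 differed by 0.24 and did not pass (limma, adjusted p = 0.251). Nlrc5 was not analysed here.

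Of 20 measured interferon-induced genes, 25 listed, 0 rose, 1 fell and 19 did not pass (9 had an unadjusted p below 0.05 in limma, all lower), with a median difference of -0.80. The gene that fell was Irgm1, a GTPase of cell-autonomous defence, by 1.13 (limma, adjusted p = 0.0316), and with the marker level as a covariate it differed by -0.30 and did not pass (limma, adjusted p = 0.725). The mean level of the 20 ran from 6.76 to 7.57 in Vav-SB tumours and from 6.72 to 9.17 in CD4-SB tumours. Of 9 measured class II genes, which serve presentation by dendritic cells, B cells and macrophages, 0 rose and 4 fell, with a median of -1.34. Beside both lists, 7.28% of all genes rose and 7.18% fell. H2-DMb1, H2-Aa and H2-DMa fell by 1.57, 1.34 and 1.27, and H2-DMb2 fell by 0.60 with no overlap between the models. H2-DMb1 and H2-DMb2 are near-identical neighbours. None of the 9 passed with the marker level as a covariate.

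Of 9 measured genes listed as class I receptors of T and NK cells, 2 rose and 2 fell, beside 7.28% and 7.18% of all genes. Cd8a, the chain whose homodimer binds the H2-T3 product, was at 10.16, 11.29 and 11.56 in Vav-SB tumours and 7.30, 8.46 and 10.99 in CD4-SB tumours, a 4.71-fold difference (limma, adjusted p = 0.00729). Cd8b1 was at 9.92, 10.32 and 10.58 in Vav-SB and 6.49, 7.44 and 9.89 in CD4-SB, a 5.79-fold difference (limma, adjusted p = 0.000723). Both passed with the marker level as a covariate as well. Lilrb4a, an inhibitory receptor of myeloid cells, and Klrc1, an NK receptor chain, fell by 1.85 and 0.35. With the covariate Lilrb4a differed by -0.17 (limma, adjusted p = 0.86) and Klrc1 by -0.35 (limma, adjusted p = 0.151), and neither passed. The 8 measured markers of double-positive thymocytes, a list that holds Cd8a, Cd8b1, Cd1d1 and Arpp21, all rose, with a median of 2.96. This list was chosen with earlier results of these data known, so its count is not a separate test. Of 7 T-lineage markers 2 rose, and their mean level ran from 10.71 to 11.14 in Vav-SB and from 9.78 to 10.75 in CD4-SB. Beside both marker lists, 7.28% of all genes rose.

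All of the 9 genes but B2m lie in the MHC region of chromosome 17. Of 207 RefSeq genes from Tapbp to H2-T3, 103 were measured, with a median of -0.02. Among the 103, 12 rose and 12 fell, beside 7.28% and 7.18% of all genes. Without the members of the 9 that lie there it was 11 and 10 of 95. Among the genes past the threshold in those 95, the largest differences were in H2-T10, H2-DMb1, H2-Aa and H2-DMa. Correlations were taken over 14 tumours after each model's mean was subtracted, as a description, since tumours share host cells and array effects. H2-K1 and H2-D1 varied together (r = 0.90), as did Psmb8 and Psmb9 (r = 0.93) and Tap1 and Tap2 (r = 0.86). H2-K1 and B2m had r = 0.79, which was 0.39 within the 7 Vav-SB tumours and 0.99 within the 7 CD4-SB tumours. H2-T3 had r = -0.04 with H2-K1, -0.32 with H2-D1 and 0.16 with B2m.

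No Vav-SB tumour was the lowest of its model in more than 3 of the 9 genes or the highest in more than 4. CD4-SB replicate 2 was the lowest CD4-SB tumour in 8 of the 9 genes and CD4-SB replicate 3 the highest in 8 of 9. The exceptions were H2-T3 for replicate 2 and Psmb8 for replicate 3. The marker level of other cell types was 7.49 in CD4-SB replicate 2, the lowest of its model, and 8.24 in replicate 3, the second highest. By the same measure the genes most like H2-K1 were H2-D1 (0.90), Iglv1 (0.872), H2-Aa (0.872), Ifit3b (0.867) and Ms4a6b (0.857). Those most like B2m were Ifi205 (0.903), Adm (0.891), Ly75 (0.891), Slfn5 (0.872) and Ighg2b (0.87). Those most like Psmb8 were Psmb9 (0.933), H2-DMa (0.911), Cd28 (0.911), Zmynd11 (0.906) and Spint2 (0.892). Those most like H2-T3 were Cabp7 (0.881), Olfr613 (0.852), Agtr1b (0.826), Gpr20 (0.811) and Cyp39a1 (0.81).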

How the data were processed

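Exon arrays measured total RNA of 14 frozen tumours, which was amplified from a small input per the labels' protocols. The authors deposited log2 values per probe set, and RMA and Partek are named per the submitters' processing notes, without versions. The log base is not given in the sources used here and is read from the range of values, 2.03 to 14.03. Array medians lay between 7.46 and 7.50, so a change in total RNA cannot be seen, and correlations between tumours ran from 0.877 to 0.968. Of 194293 probe sets, 179496 had 1 gene symbol, updated through RefSeq GRCm38.p6, and their means gave 15803 genes with no filter on dim genes. Tests used limma 3.58.1 (lmFit, eBayes, diffSplice; R 4.3.3), and p-values were adjusted by Benjamini-Hochberg over the whole table. They were tested on simulated data. The 7 tumours per model limit the precision.

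The strain label gave the groups, and replicate numbers follow accession order. Some titles of CD4-SB tumours begin with the same number, and the 7 hold 4 such numbers. What it means, and whether each tumour is from its own animal, is not given, so a p-value speaks only of the spread among the tumours measured. The genes and lists were chosen from textbook knowledge with earlier results of these data known. Named were the 9 genes and their probe sets with the lowest and highest difference or a departure from the gene. Up to 4 genes past the threshold per list were named too, with 14 regulators and subunits of prior interest. So were the 5 genes most like H2-K1, H2-T3, B2m and Psmb8. H2-M2, Ifnar1, Psmb4 and probe set 5093104 were named after their values were seen. Alternatives covered array scaling, gene summary, a filter on dim genes, the prior, array weights, the marker covariate, title numbers and each tumour left out. No slide or scan date was used here.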

Additional observations from a re-analysis of the deposited data

Results flagged for a closer look

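A tumour stood apart from the other 6 of its model by Dixon's 95% criterion in 11 of 96 groups looked at, where chance gives about 1 in 20. CD4-SB replicate 2 accounted for 4 of them. In it Psmb8 was at 9.14 (next lowest CD4-SB tumour 10.35), Psmb9 at 9.58 (next 11.24), the class II gene H2-DMa at 6.75 (next 8.93) and probe set 5487324, shared by H2-T3 and H2-D1, at 4.46 (next 5.08).

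Vav-SB replicate 6 accounted for 5. In it 4 probe sets shared by H2-T3 and its relatives were lowest, 4657006 at 7.09 (next lowest Vav-SB tumour 10.20), 5016410 at 7.15 (next 9.87), 5168526 at 8.44 (next 11.64) and 5381020 at 6.68 (next 10.24). These probe sets overlap in what they bind and are not 4 separate observations. H2-T10 was also lowest there, at 11.47 (next 12.75).

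Vav-SB replicate 3 accounted for the other 2, with Psmb7 lowest at 10.77 (next 11.21) and the mean marker level of other cell types highest at 7.81 (next 7.44).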

How the results depend on the processing

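H2-T3 kept its direction and its call in all 24 alternatives, at 3.00 to 3.43 with each tumour left out and 1.90 (only probe sets brighter than the median of all) to 3.29 (array weights) otherwise. H2-K1 (left out: -2.05 to -1.64) and H2-D1 (-2.06 to -1.69) kept theirs in 23 of 24 and lost the call with the marker level of other cell types as a covariate, at -0.88 (limma adjusted p = 0.296) and -0.82 (0.251). In that fit 526 genes passed, 346 higher and 180 lower in Vav-SB, against 2284, 1150 and 1134 without it. Only 1 of the 9 genes passed, 3 member probe sets were higher and 0 lower, and the sign turned in B2m (0.10), Tap1 (0.27), Tapbp (0.19) and Psmb9 (0.40). With 1 tumour per title number, 11 in all, 5 of the 9 genes passed, among them Tap1 at -0.83 and Tapbp at -0.46 (limma adjusted p = 0.019 and 0.0375), and Psmb8 was at -0.02. Without CD4-SB replicate 2 alone 5 passed, with Tap1 at -0.80, Psmb9 at -0.51 and Psmb8 at -0.07, and 13 probe sets were lower. The setting with 1 tumour per title number also left out CD4-SB replicate 2, so these settings are not independent of each other. With each tumour left out, the passing genes of the 9 were 3 to 5, their higher probe sets 4 to 7 and lower ones 6 to 13, B2m -0.24 to -0.13, Tap1 -0.80 to -0.38, Tap2 0.29 to 0.60, Tapbp -0.39 to -0.22, Psmb8 -0.07 to 0.25 and Psmb9 -0.51 to -0.10. All genes passing were then 1628 to 2518. The causes were not tested. Levels near background understate folds. No paired analysis was possible because the models share no title number.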
